A study of Mus musculus with 2 samples.

Results

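The fibrillar collagen chains Col1a1, Col1a2, Col3a1, Col5a1, Col5a2, Col5a3 and Col11a1 were followed across the cell types of the infarcted and the sham-operated mouse heart. The 7 genes were chosen by name as members of the fibrillar collagen family. All 7 were among the 21745 genes listed for both libraries, and each had at least 1 UMI in each library. Cell types were gated by marker genes, none of which is a fibrillar collagen. Cells with a UMI of the T cell gene Cd3d or the B cell gene Cd79a were taken as the measure of background, that is collagen RNA not made by the cell itself.

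Fibrillar collagens are long rod-like proteins made of chains wound around each other, which are trimmed outside the cell and packed side by side into the fibrils that give the heart wall its tensile strength. Col1a1 and Col1a2 encode the chains of type I collagen, the main collagen of the cardiac interstitium and of scars, and Col3a1 encodes the single chain of type III collagen, which is common in thinner and more compliant fibrils. Col5a1, Col5a2 and Col5a3 encode chains of type V collagen and Col11a1 a chain of type XI collagen, both minor components known to start fibrils and to limit their width. After infarction the dead muscle is replaced by a collagen scar laid down mainly by activated fibroblasts.

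The hearts of wild type male C57BL6/J mice aged 8 to 10 weeks were profiled by Drop-seq, in which beads in droplets give every captured mRNA the barcode of its cell and a random tag, the UMI, that lets copies of 1 molecule be counted once. The MI library came from 1 heart, taken 14 days after the left anterior descending artery had been tied off to cause a myocardial infarction (MI). The sham library pooled 4 hearts taken 14 days after the same operation without tightening of the suture. Each group was therefore 1 library, so no difference below has a replicate check or a p-value, and all intervals are 95% intervals that cover counting error only.

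The MI library held 8294 kept cells with a median of 2466 UMIs per deposited barcode, and the sham library 5969 kept cells with a median of 1424. Fibroblast-gated cells numbered 2589 in MI and 1808 in sham, macrophage/monocyte-gated cells 3514 and 1234, endothelial-gated cells 446 and 2076, mural-gated cells 118 and 70, mesothelial-gated cells 137 and 80, and T/B cells 146 and 32. A further 1292 MI and 597 sham cells passed no gate, and other classes had under 50 cells in at least 1 library. Median UMIs per fibroblast-gated cell were 5406 in MI and 1495 in sham. For this reason levels are given both as UMIs per cell and as CPM, the share of all UMIs of the class on the usual CPM scale, on which 50020 CPM is 5.002% of the UMIs. Dcn was detected in 95.4% of MI against 99.9% of sham fibroblast-gated cells, Rgs5 in 95.8% and 100% of mural-gated cells, and Upk3b in 91.2% and 97.5% of mesothelial-gated cells. Pdgfra, a receptor that defines cardiac fibroblasts, was detected in 32.3% of MI against 49.6% of sham fibroblast-gated cells. The MI and sham fibroblast-gated cells lay in different clusters of a joint clustering made without the 7 genes. Of the MI cells 1882 were in cluster 0, and of the sham cells 1800 in cluster 3. With 1 library per group such a cluster may be a library and not a cell type. The libraries shared 5 cell barcodes.

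Col1a2, Col3a1, Col11a1 and Col5a3 are shown with their promoters because the first pair had nearly the same ratio between the libraries, Col11a1 had the largest and Col5a3 was not higher per UMI. The sequences are those of RefSeq on GRCm38.p6, from 250 bases before to 50 bases after the start of the gene, 5′ to 3′ on the strand of the gene. RefSeq windows were matched for 5 of the 7 genes, the fifth being Col5a1. Capitals mark the CCAAT box, the GC box GGGCGG and the TATA box TATAAA on either strand. The windows lie at chr6:4505368-4505667 on the plus strand for Col1a2, at chr1:45311288-45311587 on the plus strand for Col3a1, at chr3:114030290-114030589 on the plus strand for Col11a1 and at chr9:20815018-20815317 on the minus strand for Col5a3. The RefSeq start of Col1a2 lies inside the longer GENCODE gene given below.
Col1a2: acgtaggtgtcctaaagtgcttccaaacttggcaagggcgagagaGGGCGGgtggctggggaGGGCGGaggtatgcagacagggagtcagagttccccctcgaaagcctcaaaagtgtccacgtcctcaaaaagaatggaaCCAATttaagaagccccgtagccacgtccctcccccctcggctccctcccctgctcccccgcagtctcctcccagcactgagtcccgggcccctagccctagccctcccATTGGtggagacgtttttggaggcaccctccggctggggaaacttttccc
Col3a1: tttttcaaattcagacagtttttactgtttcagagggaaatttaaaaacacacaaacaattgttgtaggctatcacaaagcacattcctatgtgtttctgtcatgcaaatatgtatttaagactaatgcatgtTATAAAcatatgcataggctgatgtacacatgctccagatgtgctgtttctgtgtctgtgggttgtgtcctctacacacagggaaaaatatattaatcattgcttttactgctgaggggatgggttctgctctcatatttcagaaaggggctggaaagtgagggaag
Col11a1: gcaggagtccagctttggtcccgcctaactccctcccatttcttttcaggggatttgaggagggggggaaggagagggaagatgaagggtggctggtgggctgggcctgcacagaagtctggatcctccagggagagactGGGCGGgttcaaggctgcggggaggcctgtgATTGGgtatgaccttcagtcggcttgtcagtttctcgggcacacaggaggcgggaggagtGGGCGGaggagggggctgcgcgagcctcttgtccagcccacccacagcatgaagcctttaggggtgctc
Col5a3: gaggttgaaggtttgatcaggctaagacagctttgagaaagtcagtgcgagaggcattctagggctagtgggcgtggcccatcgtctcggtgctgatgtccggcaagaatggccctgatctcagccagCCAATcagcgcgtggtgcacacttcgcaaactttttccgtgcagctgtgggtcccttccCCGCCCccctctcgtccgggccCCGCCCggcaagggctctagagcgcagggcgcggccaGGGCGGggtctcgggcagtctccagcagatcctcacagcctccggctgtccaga
Col1a2 held 2 CCAAT and 2 GGGCGG matches, Col11a1 held 1 and 2, and Col5a3 held 1 and 3. Col3a1 held 1 TATAAA match, 117 bases before its start, and neither of the others. Of 32851 RefSeq promoter windows of the same length 37.4% held CCAAT, 35.7% GGGCGG and 13.6% TATAAA. These matches are letters in a window and were not set against the expression values.

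In the GENCODE annotation of GRCm38 all 7 are protein-coding genes. Col1a1 lies on chromosome 11 from 94936224 to 94953042 and Col1a2 on chromosome 6 from 4504814 to 4541544. Col3a1, from 45311538 to 45349706 on the plus strand, and Col5a2, from 45374321 to 45503282 on the minus strand, are neighbours on chromosome 1 and do not overlap. Col5a1 lies on chromosome 2 from 27886425 to 28039514, Col5a3 on chromosome 9 from 20770050 to 20815067 and Col11a1 on chromosome 3 from 114030540 to 114220718. The sources used here do not say whether counting used the strand, so reads of Col5a1 and of 2810430I11Rik and Gm13372, which overlap it on the other strand, cannot be told apart, and the same holds for Col5a3 and Gm26274. Gm43921 overlaps Col1a2, Gm47302 Col3a1 and Gm38211 Col5a2 on the same strand, where use of the strand would not separate the reads.

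In fibroblast-gated cells 6 of the 7 chains were at least 2-fold higher in MI and 0 were at least 2-fold lower, against 12.8% and 20.5% of the 13499 genes with at least 20 UMIs in the class. The median log2 ratio over the 7 chains was 2.46 and over all these genes -0.23. The 7 chains together took 5.002% of all UMIs of MI fibroblast-gated cells and 0.831% of those of sham fibroblast-gated cells.

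Col1a1 stood at 8268 CPM (8224 to 8313) in MI, against 678 CPM (650 to 708) in sham fibroblast-gated cells, and the log2 ratio was 3.61 (3.54 to 3.67). Its partner Col1a2 stood at 27612 CPM (27531 to 27692) in MI, against 5013 CPM (4934 to 5093) in sham, and the log2 ratio was 2.46 (2.44 to 2.48). The type III chain Col3a1 was at 11024 CPM (10973 to 11075) in MI, against 2053 CPM (2003 to 2105) in sham, and the log2 ratio was 2.42 (2.39 to 2.46). Thus the intervals of Col1a2 and Col3a1 overlapped, and that of Col1a1 lay above both.

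Among the fibril-starting chains, Col5a2 was at 1687 CPM (1667 to 1707) in MI, against 243 CPM (225 to 261) in sham, and the log2 ratio was 2.80 (2.69 to 2.90). Col5a1, the chain that Col5a2 usually pairs with in type V collagen, was at 820 CPM (806 to 834) in MI, against 228 CPM (211 to 245) in sham, and the log2 ratio was 1.85 (1.74 to 1.96). Col5a3, a rarer chain of type V collagen, was at 74.8 CPM (70.7 to 79.1) in MI, against 89.2 CPM (78.9 to 100.4) in sham, and the log2 ratio was -0.25 (-0.44 to -0.06). It was the one chain not higher per UMI in MI, and its ratio lay close to the median of all genes. With median-of-ratios scaling, which shifts every ratio in this class by 0.25, it was -0.01.

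Col11a1 had the largest ratio of the 7. It had 8707 UMIs in 1528 of the 2589 MI fibroblast-gated cells, and 9 UMIs in 9 of the 1808 sham fibroblast-gated cells. That made 534 CPM (523 to 546) in MI, against 2.95 CPM (1.35 to 5.60) in sham, and the log2 ratio was 7.5 (6.58 to 8.63). Of the 13499 genes 6 had a higher ratio. The sham level per cell, 0.00498 UMIs (0.00228 to 0.00945), overlapped that of sham endothelial-gated cells, 0.00578 UMIs (0.00299 to 0.0101), so expression of Col11a1 by sham fibroblasts could not be told from background at this depth.

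**Figure D1:**
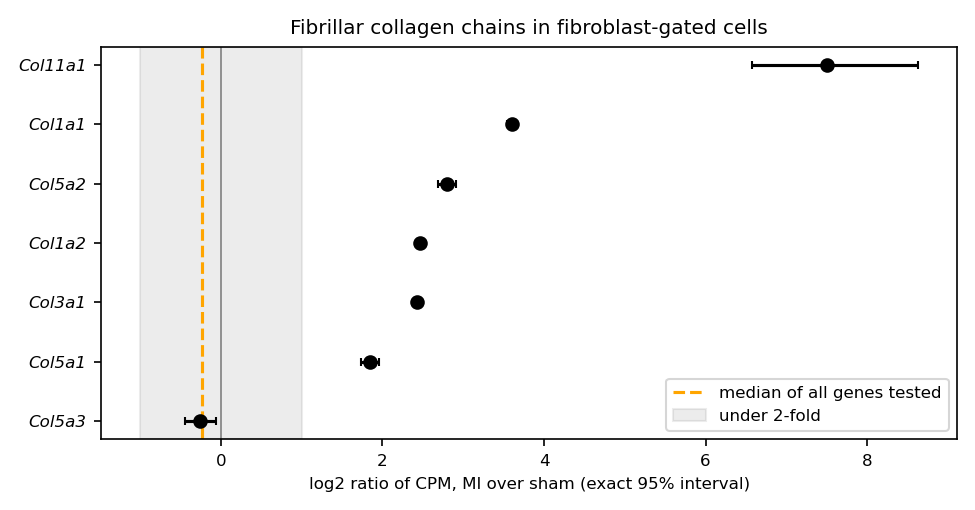
Log2 ratio of CPM in fibroblast-gated cells, MI over sham, for each of the 7 chains, with exact 95% intervals of counting error. The dashed line marks the median of all genes at -0.23 and the grey band ratios under 2-fold. Col11a1 lies farthest to the right at 7.5 and Col5a3 alone lies in the band, at -0.25.

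One cluster of MI cells, cluster 6, held 389 of the MI and 0 of the sham fibroblast-gated cells, and 4 of its 10 leading genes were mesothelial markers (Lrrn4, Upk1b, Upk3b and Wt1). The 10 leading genes of the other clusters that held most fibroblast-gated cells (0, 3 and 7) had 0 mesothelial markers, and none of the 4 clusters had a fibroblast marker among them. Without its cells the ratios were 3.63 for Col1a1, 2.47 for Col1a2, 2.41 for Col3a1, 1.89 for Col5a1, 2.85 for Col5a2 and 7.69 for Col11a1, and that of Col5a3 was -0.49. In UMIs per cell, where the difference in depth is not divided out, Col1a1 averaged 52.0 in MI and 1.14 in sham fibroblast-gated cells, a 45.5-fold difference. Col5a3 averaged 0.471 in MI and 0.150 in sham, a 3.13-fold difference. More RNA per cell and deeper reading of each cell cannot be told apart here.

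The balance between chains also differed. A UMI counts 1 molecule whatever the length of the transcript, so shares of UMIs between chains are shares of captured molecules. Col1a1 made up 23.0% (22.9 to 23.2) of the UMIs of Col1a1 and Col1a2 in MI fibroblast-gated cells and 11.9% (11.4 to 12.4) in sham. Col3a1 made up 28.5% (28.4 to 28.6) of the sum of Col3a1 and Col1a2 in MI and 29.1% (28.5 to 29.7) in sham, nearly the same share. Within the minor chains the make-up differed more. Col5a1 made up 32.7% (32.2 to 33.2) of Col5a1 and Col5a2 together in MI and 48.4% (45.8 to 51.0) in sham. Col11a1 made up 39.5% (38.8 to 40.1) of Col11a1 and Col5a1 together in MI and 1.28% (0.587 to 2.42) in sham.

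Thinning each cell to 500 UMIs, which left out no cell, set the libraries to 1 depth. The median fibroblast-gated cell then held 25 UMIs of the 7 chains in MI (quartiles 18 and 33, highest 125) and 4 in sham (quartiles 2 and 5, highest 35). The T/B cells held a median of 1 in MI and 0 in sham. Col1a1 was detected in 94.1% (93.1 to 94.9) of MI against 26.8% (24.7 to 28.9) of sham fibroblast-gated cells after thinning (99.7% and 57.4% before it). In T/B cells, which do not make it, Col1a1 was seen in 22.6% of MI cells after thinning. Col11a1 was detected in 19.6% (18.1 to 21.2) of MI against 0.111% (0.0134 to 0.399) of sham fibroblast-gated cells (59.0% and 0.498% before thinning), and in 1.37% of MI T/B cells. Col5a3 was detected in 3.4% (2.73 to 4.17) of MI against 4.65% (3.72 to 5.72) of sham fibroblast-gated cells, and in none of the 146 MI T/B cells, which allows a share of up to 2.05% by the floor of 3 counts.

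**Figure D2:**
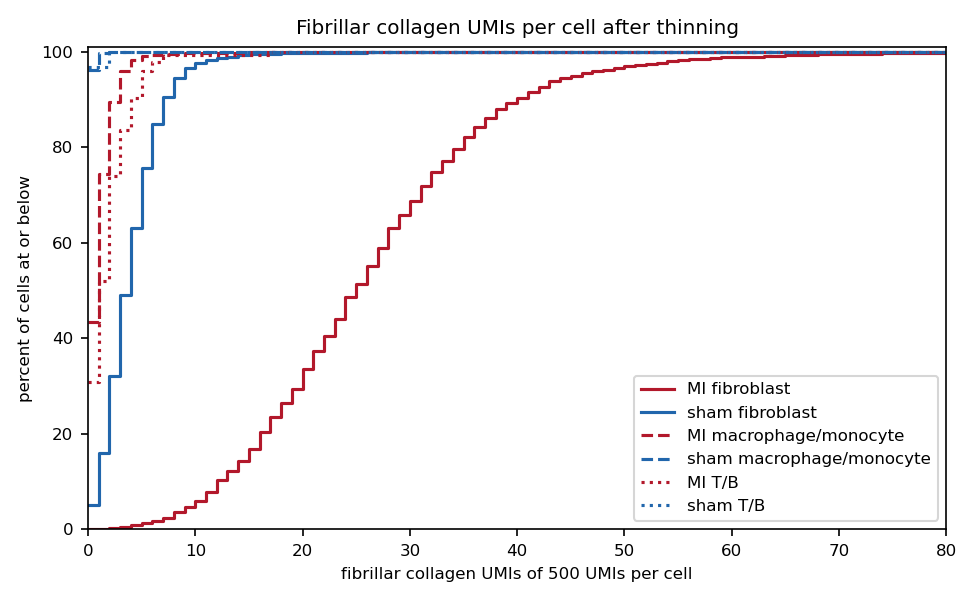
Cumulative percent of cells (vertical axis) by UMIs of the 7 chains per cell after thinning to 500 UMIs (horizontal axis), for fibroblast-gated, macrophage/monocyte-gated and T/B cells of MI (red) and sham (blue). The highest cells, up to 125 UMIs, lie beyond the axis. At the median the MI fibroblast curve stands at 25 UMIs and the sham fibroblast curve at 4, while the MI T/B curve lies near 1.

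Within MI fibroblast-gated cells Col11a1 varied most with the markers of activation. Cells with a UMI of Cthrc1, a secreted protein known from wounds, were 2251 of the 2589. They held 565 CPM of Col11a1 (553 to 577) and the 338 cells without it 165 CPM (143 to 189), a log2 ratio of 1.78 (1.58 to 1.99). Across the 2348 cells with a UMI of Postn, the matricellular protein periostin, the ratio over the 241 cells without was 1.91 (1.71 to 2.13), and across 2109 cells with Acta2, smooth muscle alpha-actin, over 480 without it was 1.07 (0.94 to 1.21). Cells with such a marker were also deeper, with median UMIs of 5798 with Cthrc1 and 3138.5 without.

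The other chains differed less with these markers. With Cthrc1, Col5a1 was higher by 0.70 (0.58 to 0.81) on the log2 scale, Col1a1 by 0.56 (0.53 to 0.60) and Col5a2 by 0.54 (0.46 to 0.61), while Col3a1 stood at -0.02 (-0.04 to 0.01). With Acta2, Col3a1 was lower, at -0.33 (-0.35 to -0.31), with 10712 CPM in cells with Acta2 and 13482 CPM in cells without. Col5a3 was lower in cells with Postn, at -0.87 (-1.11 to -0.62).

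Cells with a UMI of Wt1, a transcription factor of the epicardium, were 246 of the MI fibroblast-gated cells and showed the opposite pattern. Col5a3 was at 141 CPM (126 to 158) in cells with Wt1 and 65.1 CPM (61.0 to 69.4) in cells without, a log2 ratio of 1.12 (0.92 to 1.31). Col11a1 was at 232 CPM (212 to 254) with Wt1 and 579 CPM (566 to 591) without, a log2 ratio of -1.32 (-1.45 to -1.18). In the 657 cells with a UMI of the proliferation genes Mki67 or Top2a the 7 chains together stood at 43238 CPM and in the 1932 without at 53202 CPM, with log2 ratios of -0.34 to -0.15 for 6 chains and 0.19 (0.02 to 0.36) for Col5a3.

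**Figure D3:**
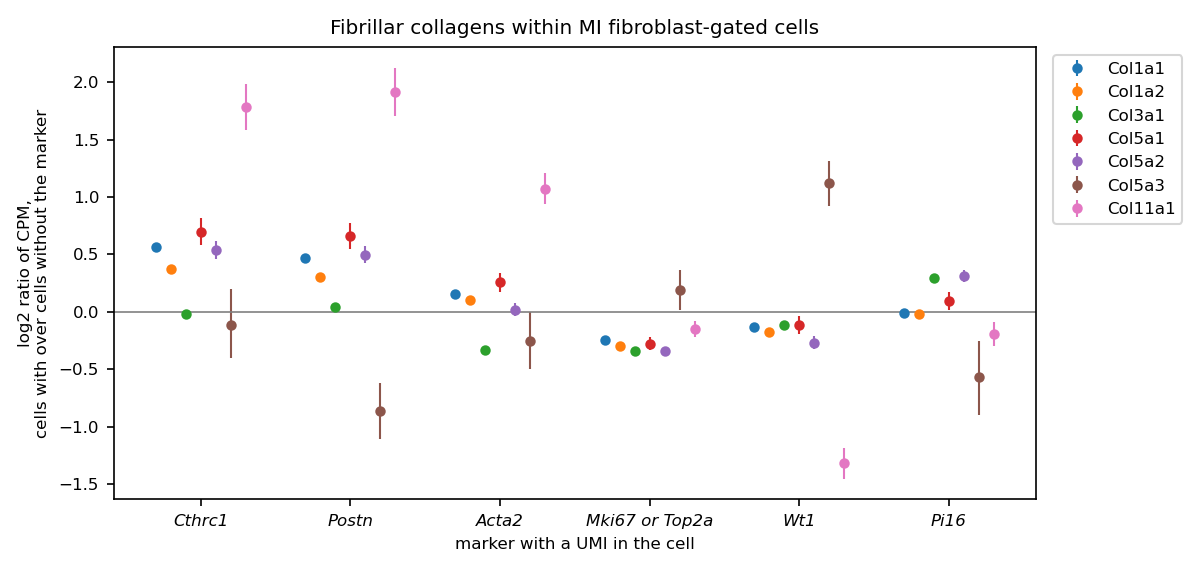
Log2 ratio of CPM within MI fibroblast-gated cells, cells with a UMI of the marker named below the axis over cells without it, for each chain, with exact 95% intervals of counting error. Col11a1 (pink) is at 1.78 with Cthrc1 and -1.32 with Wt1, and Col5a3 (brown) at 1.12 with Wt1.

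In the sham heart Pi16, a marker of adventitial fibroblasts, split the fibroblast-gated cells into 1043 with a UMI and 765 without. The 7 chains together were at 8272 CPM in cells with Pi16 and 8368 CPM in cells without. Col5a3 was at 73.3 CPM (61.7 to 86.4) with Pi16 and 116 CPM (97.3 to 138) without, a log2 ratio of -0.67 (-1.02 to -0.31), and it was also lower with Pi16 in MI, at -0.57 (-0.90 to -0.26).

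Collagen UMIs were also found in cells that do not make collagen. The 146 MI T/B cells held 4.77 UMIs of the 7 chains per cell (4.42 to 5.13), with a median of 4 and only 7 cells at 0. The 32 sham T/B cells held 0.188 per cell (0.0688 to 0.408), and 28 of them held 0. Without the 3 cells of most collagen UMIs the values were 4.36 in MI and 0.0345 in sham. T/B cells that also carried at least 3 markers of another class were left out of these figures. With them kept, 189 MI cells held 25.5 and 57 sham cells 1.18 per cell, and 1 MI cell alone held 485. In MI T/B cells the defining fibroblast gene Pdgfra was seen in 1.37% of cells and Serpinf1 in 2.05%. Both are on the fibroblast marker list, whose other genes are not given here for T/B cells. The gate let a T/B cell carry under 3 markers of that list, which by itself holds these shares down. They therefore do not show how the collagen UMIs reached these cells.

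Macrophage/monocyte-gated cells held no more collagen UMIs than T/B cells. All 7 chains together came to 4.16 UMIs per cell (4.09 to 4.23) in MI and 0.102 (0.0851 to 0.122) in sham. Col1a1 averaged 0.660 UMIs per MI macrophage/monocyte-gated cell and 0.719 per MI T/B cell, Col1a2 2.34 and 2.50, Col3a1 0.890 and 1.27, Col5a2 0.136 and 0.151 and Col11a1 0.0566 and 0.0685. Only Col5a1, at 0.0723 (0.0637 to 0.0817) and 0.0616 (0.0282 to 0.117), and Col5a3, at 0.00711 and 0, were not below it, within counting error for Col5a1. The log2 ratios of MI over sham in this class ran from 4.17 to 6.30 for the 6 chains past 2-fold (9.27% of 11551 genes were at least 2-fold higher). With the T/B level subtracted 5 of the 6 had no value left and Col5a1 was at 1.76, so expression by these cells could not be told from background.

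The make-up of these UMIs in MI was nearly that of MI fibroblast-gated cells. Col1a2 took 56.2% (55.4 to 57.0) of the collagen UMIs of macrophage/monocyte-gated cells and 55.2% (55.1 to 55.3) of those of fibroblast-gated cells. Col3a1 took 21.4% (20.7 to 22.1) and 22.0% (21.9 to 22.1), Col1a1 15.9% (15.3 to 16.5) and 16.5% (16.4 to 16.6), and Col5a2 3.26% (2.98 to 3.57) and 3.37% (3.33 to 3.41). The intervals of Col1a2 did not overlap, nor did those of Col11a1, with 1.36% (1.18 to 1.56) and 1.07% (1.05 to 1.09), and in T/B cells Col3a1 took 26.6% (23.3 to 30.03).

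**Figure D4:**
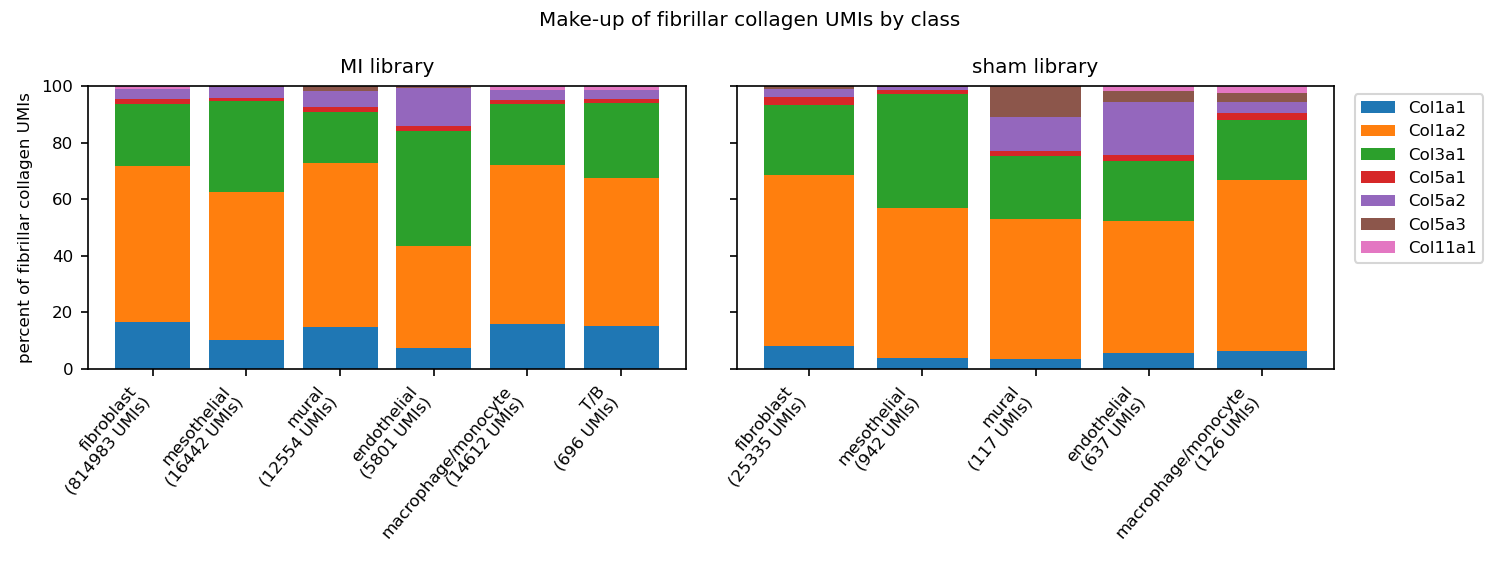
Percent of the UMIs of the 7 chains taken by each chain, by gated class, with MI left of sham and the 6 UMIs of sham T/B cells not drawn. In MI the macrophage/monocyte and T/B bars resemble the fibroblast bar, with Col1a2 at 56.2% and 52.4% against 55.2%, and the endothelial bar stands apart, with Col3a1 at 40.5% and Col5a2 at 13.4%.

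Summed over the class, MI endothelial-gated cells had a make-up unlike that of fibroblast-gated cells. In sham endothelial-gated cells Col3a1 took 21.4% (18.2 to 24.7) and Col5a2 18.5% (15.6 to 21.8). Col3a1 took 40.5% (39.3 to 41.8) and Col5a2 13.4% (12.6 to 14.4) of their collagen UMIs in MI, against 22.0% and 3.37% in MI fibroblast-gated cells. In UMIs per cell Col3a1 averaged 5.27 (5.06 to 5.49) in MI endothelial-gated cells and 1.27 (1.09 to 1.46) in MI T/B cells, and Col5a2 averaged 1.75 (1.63 to 1.88) and 0.151 (0.0944 to 0.228). Col3a1 stood at 1099 CPM (1055 to 1145) in MI, against 34.7 CPM (29.1 to 41.0) in sham, and the log2 ratio was 4.99 (4.74 to 5.25). Col5a2 stood at 365 CPM (339 to 391) in MI, against 30.1 CPM (24.9 to 36.0) in sham, and the log2 ratio was 3.60 (3.32 to 3.89). Counting all chains, 6 were at least 2-fold higher, against 11.9% of 11651 genes, and Col5a3 was at -0.45 (-1.67 to 0.66). Not all of the 6 stood above the T/B cells of MI. Col11a1 averaged 0.0673 UMIs per MI endothelial-gated cell and 0.0685 per MI T/B cell, and Col1a1 0.948 (0.860 to 1.04) and 0.719 (0.588 to 0.871), with overlapping intervals. By CPM, which divides out depth, Col1a1 was at 198 (179 to 217) in MI endothelial-gated and 452 (369 to 547) in MI T/B cells. Col1a2, at 984 (942 to 1027) and 1570 (1413 to 1740), and Col11a1, at 14.0 and 43.0, were also below T/B cells. Col3a1 and Col5a2 stayed above the T/B levels of 796 (685 to 919) and 94.6 (59.3 to 143). Col5a1 overlapped, at 47.2 and 38.7. With the T/B level of each library subtracted the log2 ratio of Col1a1 was 2.42, that of Col5a2 3.47 and that of Col5a1 3.37. Sham T/B cells held 0 UMIs of Col1a1, Col5a2 and Col5a1, so for these nothing was subtracted in sham. The upper limit there, 0.115 UMIs per cell, lay above the sham endothelial levels of 0.0169, 0.0568 and 0.00626. The sham values may thus hold background, and these ratios are not free of it. Col11a1 had no value left in MI and Col3a1 none in sham, where it averaged 0.0655 UMIs per endothelial-gated cell and 0.0938 per T/B cell.

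A split by Npr3, a natriuretic peptide receptor known from endocardial cells, was chosen after the values were seen. Cells with a UMI of Npr3 were 171 of the 446 MI and 148 of the 2076 sham endothelial-gated cells, so the class average of MI rests far more on them. Those cells held 1834 CPM of Col3a1 (1753 to 1919) in MI, against 58.4 CPM in sham, and 518 CPM of Col5a2 (475 to 564) in MI, against 161 CPM in sham. In summed UMIs Col3a1 stood above Col1a2 in MI cells with Npr3, at 1908 and 1110, and below it in those without, at 444 and 995. In cells without Npr3 Col3a1 was at 404 CPM (367 to 443) in MI, which is 1.61 UMIs per cell, and at 32.4 CPM in sham. Col5a2 there was at 219 CPM (192 to 249), or 0.876 UMIs per cell, in MI and 17.6 CPM in sham. MI T/B cells held Col3a1 at 796 CPM (685 to 919), or 1.27 UMIs per cell (1.09 to 1.46). Col3a1 in MI cells without Npr3 was thus below T/B cells by CPM, and its expression there could not be told from background. Col5a2 in these cells stood above the MI T/B levels of 94.6 CPM (59.3 to 143) and 0.151 UMIs per cell. Of the MI cells with Npr3 80.1% had a UMI of the endothelial gene Cdh5, 86.0% of Dcn, 6.43% of Pdgfra and 2.92% of Serpinf1. Among MI cells without Npr3 these shares were 85.1%, 21.5%, 0.727% and 2.18%. In sham they were 41.2%, 78.4%, 1.35% and 0% with Npr3, and 73.9%, 17.5%, 1.35% and 0.622% without. Dcn was thus detected more often in cells with Npr3 in both libraries. The part of fibroblast RNA in these values was not tested.

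Mural-gated cells, which line vessels from outside as pericytes or smooth muscle, had 5 of 6 chains with at least 20 UMIs at least 2-fold higher in MI, against 18.5% of 5820 genes. Col1a1 averaged 15.7 UMIs per cell (15.04 to 16.5) in MI and 0.0571 (0.0156 to 0.146) in sham, which is 2241 CPM in MI and 47.8 CPM in sham, a log2 ratio of 5.55 (4.19 to 7.43). Col1a2 was at 8794 CPM (8593 to 8998) in MI, against 692 CPM (526 to 895) in sham, and the log2 ratio was 3.67 (3.29 to 4.07). The smooth muscle gene Myh11 was detected in 72.9% of MI against 20% of sham mural-gated cells and the pericyte gene Kcnj8 in 37.3% and 75.7%, so the 2 classes differ in make-up, and the part of this in the ratios was not tested. By cluster, 80 of the 118 MI cells lay in cluster 11, where most gated cells were mural. Another 35 lay in cluster 7 and 3 in cluster 0, where most gated cells were fibroblast-gated. Of the 70 sham cells 68 lay in cluster 11 and 2 in cluster 7. The part of this placement in the ratios was not tested either. Col11a1 had 7 UMIs in 5 of the 118 MI cells and 0 UMIs in the 70 sham cells.

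Col5a3 was detected in mural-gated cells of both libraries. It averaged 1.74 UMIs per cell (1.51 to 1.99), or 247 CPM (215 to 284), in MI and 0.186 (0.0989 to 0.318), or 155 CPM (82.6 to 265), in sham. In MI this lay above every other gated class, and in sham its interval overlapped that of fibroblast-gated cells. Col5a3 made up 47.0% (42.3 to 51.8) of Col5a1 and Col5a3 together in MI mural-gated cells and 8.36% (7.92 to 8.82) in MI fibroblast-gated cells. In sham the share was 86.7% (59.5 to 98.3) of 15 UMIs in mural-gated cells and 28.2% (25.3 to 31.1) in fibroblast-gated cells. Sham endothelial-gated cells, at 65.8% (48.6 to 80.4), and macrophage/monocyte-gated cells, at 57.1% (18.4 to 90.1), overlapped the mural share. A high share in sham was thus not particular to mural-gated cells. The log2 ratio of MI over sham in mural-gated cells was 0.67 (-0.13 to 1.61). With classes from clusters it was 1.65, from the 126 MI and 189 sham cells of cluster 11. Of the 126 MI cells 80 were mural-gated and 44 passed no gate. Of the 189 sham cells 68 were mural-gated, 38 were endothelial-gated and 82 passed no gate. The part of this make-up in the ratio was not tested.

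Mesothelial-gated cells, the covering layer of the epicardium, held much collagen RNA already in sham. Col3a1 averaged 38.6 UMIs per cell (37.6 to 39.7) in MI and 4.74 (4.27 to 5.24) in sham, which is 5415 CPM (5270 to 5563) in MI, against 1940 CPM (1750 to 2145) in sham. The sham level overlapped that of sham fibroblast-gated cells, at 2053 CPM (2003 to 2105). Col3a1 made up 38.1% (37.3 to 38.9) of Col3a1 and Col1a2 together in MI and 43.1% (39.8 to 46.5) in sham mesothelial-gated cells, above the 28.5% and 29.1% of fibroblast-gated cells. The log2 ratios of MI over sham were 3.38 (2.57 to 4.34) for Col5a2, 3.20 (2.73 to 3.71) for Col1a1, 2.56 (0.64 to 5.64) for Col5a3, 1.78 (1.65 to 1.91) for Col1a2, 1.48 (1.33 to 1.64) for Col3a1 and 1.48 (0.63 to 2.46) for Col5a1. These 6 were at least 2-fold higher, against 17.5% of 6992 genes. Col11a1 had 21 UMIs in MI and 0 in sham. In MI 128 of the 137 cells lay in cluster 6 and in sham 76 of the 80 in cluster 19. Cluster 6 also held 389 fibroblast-gated MI cells, and 73.8% of its gated cells were fibroblast-gated. Cluster 19 held 0 MI cells, and 100% of its gated cells were mesothelial-gated. The part of this placement in the ratios was not tested. The fibroblast gene Pdgfra was detected in 16.1% of MI against 1.25% of sham mesothelial-gated cells, and its part in the ratios was not tested.

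**Figure D5:**
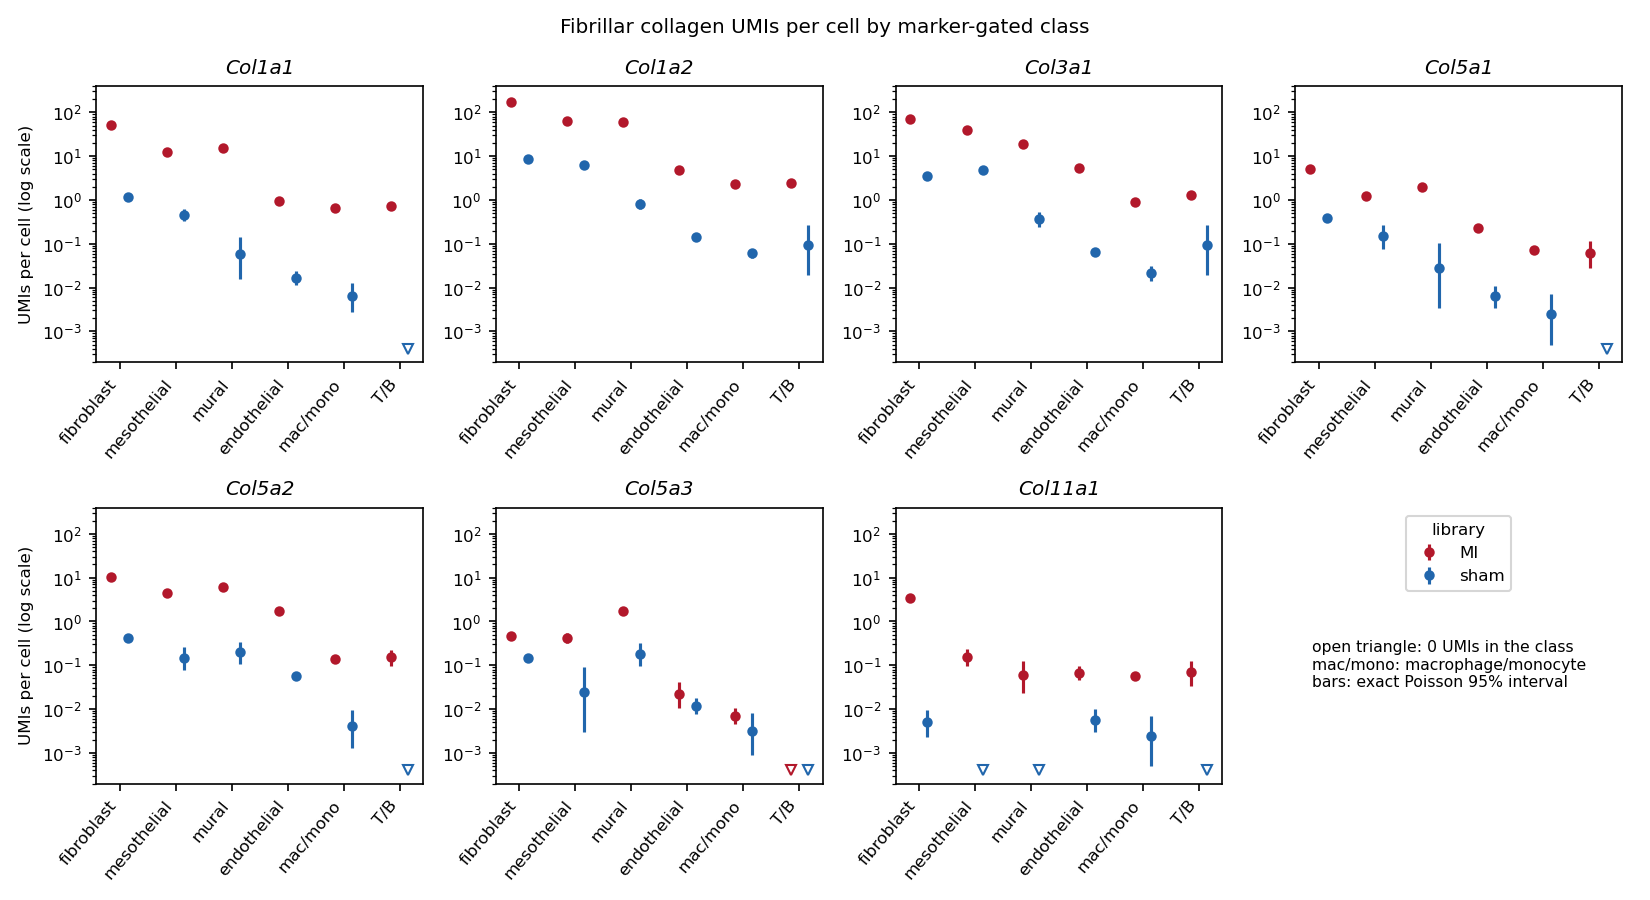
UMIs per cell on a log scale for each chain, by gated class, in MI (red) and sham (blue), with exact Poisson 95% intervals. Open triangles mark 0 UMIs. Fibroblasts stand highest in MI for 6 chains and mural cells for Col5a3, at 1.74 UMIs per cell. T/B cells were taken as the background level.

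Ordered by UMIs per cell in MI, Col1a1 ran from fibroblast-gated cells at 52.0 to mural at 15.7, mesothelial at 12.4, endothelial at 0.948, T/B at 0.719 and macrophage/monocyte at 0.660, where the intervals of the last 3 overlapped between neighbours. Col1a2 had the same order except that mesothelial, at 62.7 (61.4 to 64.0), and mural cells, at 61.8 (60.4 to 63.2), overlapped. Col5a1 stood at 5.16 in fibroblast-gated, 1.96 in mural and 1.22 in mesothelial cells, and Col5a2 at 10.6, 6.16 and 4.56. For Col11a1 fibroblast-gated cells at 3.36 (3.29 to 3.43) stood alone, and the next, mesothelial cells at 0.153 (0.0949 to 0.234), overlapped T/B cells at 0.0685 (0.0328 to 0.126). Fibroblast-gated cells held 83.7% of all UMIs of the 7 chains in the MI library and 89.6% in the sham library, and the cells that passed no gate 11.2% and 3.64%.

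The lists held other fibrillar collagens, fibril-associated collagens, collagen receptors, and genes that hydroxylate, fold, export, cut, crosslink, break down or take up collagen. Of these 52 genes 49 had at least 20 UMIs in fibroblast-gated cells. Among the 49, 25 were at least 2-fold higher and 4 at least 2-fold lower in MI, against 12.8% and 20.5% of all genes. Their median log2 ratio was 1.00. Crosslinking was the list with the largest share higher among those of 5 or more genes, with 4 of 5. The lysyl oxidase Lox was at 1568 CPM in MI and 39.3 CPM in sham, a log2 ratio of 5.32 (5.06 to 5.59), Loxl3 was at 2.60 and Loxl2 at 1.62. All 3 fibril-associated collagens were higher, with Col12a1 at 4.92 (4.38 to 5.53), Col14a1 at 1.71 and Col16a1 at 1.56.

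Of the 12 genes of prolyl and lysyl hydroxylation, which stabilise and prepare the chains, 6 were higher and 1 lower. P4ha3 had 995 UMIs in MI and 0 in sham, a log2 ratio of at least 5.96 against a floor of 3 counts in the class, Plod2 was at 2.35 and Ppib at 1.32. Folding and export had 3 of 8 higher, led by the chaperone Fkbp10 at 2.54, with Creb3l1 at 1.07 and Colgalt1 at 1.00. Propeptide cleavage had 1 of 6 higher and 1 of 6 lower, or 16.7% each, near the shares of 12.8% and 20.5% over all genes. Adamts3 was at 2.17, with 144 UMIs in MI and 6 in sham, Adamts2 at 0.64 and the enhancer of procollagen cleavage Pcolce2 at -2.53 (-2.62 to -2.45). Of 7 collagen receptors 3 were higher and 2 lower, with Itga10 at 2.60, Itgb1 at 1.00 and the receptor kinase Ddr2 at -2.05 (-2.21 to -1.90). Of 5 genes of breakdown and uptake 3 were higher, with the membrane protease Mmp14 at 2.94, the cathepsin Ctsk at 1.61 and Fap at -0.55. Of the other fibrillar collagens 2 of 3 were higher, Col2a1 at 5.57 (254 UMIs in MI and 1 in sham) and Col24a1 at 3.92 (162 and 2), with Col27a1 at 0.13 (-0.11 to 0.39).

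Over the 12 combinations of class and library, which share free RNA and depth within each library, the levels of Col1a1, Col1a2, Col3a1, Col5a1 and Col5a2 moved together, with Pearson's r of log2(CPM + 1) from 0.861 to 0.981 between pairs. Col5a3 and Col11a1 had r = 0.109 with each other. Of 8125 genes the one most like Col1a1 was Timp1, a metalloproteinase inhibitor (r = 0.965), which was also nearest for Col1a2 (0.945) and Col3a1 (0.9302). Next came Mmp14 and Efemp2 for Col1a1, Olfml2b and Loxl2 for Col1a2, and Fst and Olfml2b for Col3a1. Col5a1 was most like Adamts2 (0.961), then Efemp2 and Loxl2. Col5a2 was most like Fkbp10 (0.990), then C1qtnf6 and Ccdc104. Col5a3 was most like Clip3 (0.957), then Robo1 and Ddr2, and Col11a1 most like Cthrc1 (0.941), then Ltbp2 and C1qtnf3. These are descriptions of 12 points, with no test.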

How the data were processed

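The data were Drop-seq tables of 1 infarcted heart and of a pool of 4 sham hearts. Each deposited table gives whole-number UMI counts, not normalized, of genes by barcodes. The submitters' processing notes name the build mm10 and Seurat, with no version, and the sources used here do not give the aligner, the counting program or the use of strand. The labels' protocol, the same for both samples, describes the coronary ligation but also mice left out for a low pressure gradient at an aortic narrowing, and hearts fixed and embedded for freezing. How these steps bear on the libraries cannot be told from the labels. Every deposited barcode had at least 500 genes, so low-RNA cells can be missing. The MI data held 33275336 UMIs in 8555 barcodes and the sham data 11307405 in 6337.

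Barcodes over 25% mitochondrial UMIs, 114 of MI and 34 of sham, were left out. Scrublet in scanpy 1.11.5 then removed 147 MI (1.74%) and 334 sham (5.30%) doublets. A cell was gated to a class with at least 3 of its markers detected and a detected share of the list at least 1.5 times that of the next class. T/B cells had a UMI of Cd3d or Cd79a and under 3 markers of any other class except NK. The markers were written down first, the gate rule after the depth was seen. The members and lists were chosen with earlier results of these data known.

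UMIs were summed per class and given per cell and as CPM with exact Poisson intervals. For MI over sham ratios the intervals were exact and binomial, conditional on the summed UMIs, for shares they were Clopper-Pearson intervals, and all cover counting error only at 95%. A gene with 0 UMIs in 1 class was set to a floor of 3 counts. Ratios were made for genes with at least 20 UMIs in a class, and past 2-fold counted as higher or lower. Named genes were the 7 members, in each list the 3 with at least 50 UMIs whose interval bound nearest to a ratio of 1 lay farthest from it, and for each member the 3 genes of highest Pearson r among genes with at least 500 UMIs, without members and Gm or Rik genes. Cells were thinned to 500 UMIs. The alternative classes came from leidenalg 0.10.2 at resolution 0.8, without the members. The ratio step was also run on simulated Poisson counts. These hold no spread between cells, hearts or libraries, so that run bears on counting error only. Scripts ran under Python 3.11.15 with pandas 2.3.3, scipy 1.17.1 and numpy 2.4.6, and matplotlib 3.10.9 drew the plots.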

Additional observations from a re-analysis of the deposited data

Results flagged for a closer look

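Per UMI Col5a3 moved in different directions in 2 classes of the same comparison. In fibroblast-gated cells its log2 ratio of MI over sham was -0.25 (-0.44 to -0.06), and in mesothelial-gated cells 2.56 (0.64 to 5.64), from 59 UMIs in MI and 2 in sham. The medians of all genes tested in these classes were -0.23 and 0.06. In UMIs per cell, where depth is not divided out, Col5a3 was higher in MI in both classes, by 3.13-fold and 17.2-fold. With 1 library per group the difference between the classes was not tested. Without the cluster led by mesothelial markers the fibroblast value was -0.49, and with median-of-ratios scaling it was -0.01.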

How the results depend on the processing

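The 6 higher chains in fibroblast-gated cells stayed past 2-fold under each alternative run, and no called ratio changed sign. With classes from clusters the log2 ratios were 3.46 for Col1a1, 2.33 for Col1a2, 2.28 for Col3a1, 1.70 for Col5a1 and 2.67 for Col5a2. With median-of-ratios scaling they were 3.85, 2.71, 2.67, 2.10 and 3.05, and -0.01 (-0.0059) for Col5a3. Col5a3 was -0.49 without the cluster led by mesothelial markers, an alternative chosen after seeing the data. Col1a2 was 2.49 with doublets kept, 2.52 with the 7 chains left out of the class total and 2.53 as a mean of per-cell shares, and Col3a1 was 2.49 and 2.64 in the last 2. The T/B level of 4.77 UMIs per cell in MI was 25.5 with cells of other classes kept and 4.36 without the 3 cells of most collagen UMIs, an alternative chosen after seeing the data, and that of sham 1.18 and 0.0345 against 0.188. At a minimum of 100 UMIs 2 of the list genes were at least 2-fold lower in place of 4. The other 49 of these values moved by less than their interval, and so did 119 of those in other classes and shares, while 68 moved further. The causes were not tested.

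Subtracting the T/B level left no value for 5 chains in macrophage/monocyte-gated cells and for Col3a1 and Col11a1 in endothelial-gated cells, and clusters gave none for mesothelial cells, since 0 MI cells lay in that cluster. Depth limits Col11a1 in sham, with 9 UMIs in fibroblast-gated cells. Leaving out a replicate was not possible with 1 library per group. No paired analysis was possible because each group is 1 library.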

Other observations

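Sham fibroblast-gated cells with Cthrc1, taken as a sum, carried collagen RNA near the level of MI fibroblast-gated cells. The 6 sham fibroblast-gated cells with a UMI of Cthrc1 held 42196 CPM (39256 to 45297) of the 7 chains, against 8105 CPM (8004 to 8207) in the 1802 without. The interval does not cover the spread between the 6 cells, whose single values are not given, so a few of them may carry the sum. After thinning to 500 UMIs, 99.8% of all sham fibroblast-gated cells held 19 or fewer UMIs of the 7 chains. In these 6 cells Col3a1 was at 15299 CPM (13550 to 17211), Col1a2 at 21650 CPM and Col1a1 at 3700 CPM, and Col11a1 had 0 UMIs. The 111 sham cells with a UMI of Postn held 13399 CPM (12963 to 13847) and the 1697 without 7822 CPM (7718 to 7926), with a median of 2084 UMIs with Postn and 1475 without. The 6 cells come from an unknown number of the 4 pooled hearts.

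Cells that passed no gate held 84.2 collagen UMIs per cell in MI and 1.72 in sham. Their level of 24423 CPM in MI lay between those of fibroblast-gated and T/B cells.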
